A study of Mus musculus with 12 samples.

Results

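This report compares regulatory T cells (Tregs) that carry the M176 form of the transcription factor Foxp3 with Tregs that carry the wild-type (WT) form. It rests on 4 of the 12 arrays of the study, which were chosen by their titles: 2 of Tregs with the genotype Foxp3(M176/M176) and 2 of Tregs with Foxp3(WT/WT). Both groups were labelled as CD4+TCRb+CD25+ cells from the spleens of male C57Bl/6 mice aged 6 weeks, and the design text describes live cells with high CD25, sorted in a pair of passes. That text calls the mice treated and names no treatment. Foxp3 lies on the X chromosome, of which a male carries a single copy, while the labels write the genotype with 2 allele symbols. The amino acid change that M176 stands for is not given in the sources used here. The other 8 arrays are of M354 Tregs and of WT conventional CD4+ T cells transduced by retrovirus with WT, M354 or M176 Foxp3. Each of these groups has 2 arrays and is also labelled with an age of 6 weeks. Total RNA was amplified, labelled and hybridised to Affymetrix ST1.0 arrays. Nothing in the labels tells whether both arrays of a group stem from different mice. The p-values therefore rest on sample-to-sample spread that could be technical.

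Tregs restrain other immune cells, and Foxp3 is the factor that gives them this identity. It raises genes such as the interleukin-2 receptor chain Il2ra and lowers others such as the cytokine gene Il2. In the spleen some Tregs stay in a resting state, while others become effector Tregs, which divide, carry receptors for inflamed tissue and hold more suppressive mediators.

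Values are intensities on a linear scale, and changes are M176 minus WT on the log2 scale with their standard error (SE). Of 16426 genes with a probe set that names them alone, 8918 were tested, those above the median of their array on at least 2 of the 12 arrays. Calls are those with an adjusted p (Benjamini-Hochberg) under 0.05 in a limma fit of all 12 arrays, and "rose" and "fell" are used of called genes. Limma called 2207 genes between M176 and WT Tregs, 24.7% of those tested. Of these, 1196 rose (13.4% of genes tested) and 1011 fell (11.3%), and the median change over all genes tested was -0.04. The split leaned the other way with quantile normalization, which gave 1125 rises and 1451 falls. The change passed 2-fold for 198 of the genes that rose and for 65 of those that fell. Without M176 replicate 1 the count was 916 genes, without WT replicate 1 it was 1418, without WT replicate 2 it was 1438 and without M176 replicate 2 it was 1522.

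All 8 T cell markers lay above the array median on each of the 4 arrays, and of 14 myeloid markers 1 or 2 did. WT replicate 2 held more transcript of B cell genes than the other 3 arrays. The B cell marker Cd79a was at 93.8 and 399 on the WT arrays and at 105 and 94.6 on the M176 arrays, and the MHC class II gene H2-Aa was at 68.2 and 557 against 106 and 84.8. The summed level of the 13 B cell markers was 5162 and 6253 with WT and 4813 and 4620 with M176, with 4, 11, 5 and 4 of them above the array median. Results that rest on WT replicate 2 are given without it. Small nucleolar RNAs set the groups apart as well: the mean log2 level of their list was 8.74 and 8.87 on the WT arrays and 9.98 and 10.04 on the M176 arrays. It was 8.66 and 8.78 in M354 Tregs. In transduced cells it differed between arrays of the same group. There it was 9.64 and 8.75 with M354, 8.86 and 9.46 with M176, and 8.61 and 9.18 with WT Foxp3. Among M176 and WT Tregs this level separates the same arrays as the differences described below, and its part in them was not tested.

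**Figure D1:**
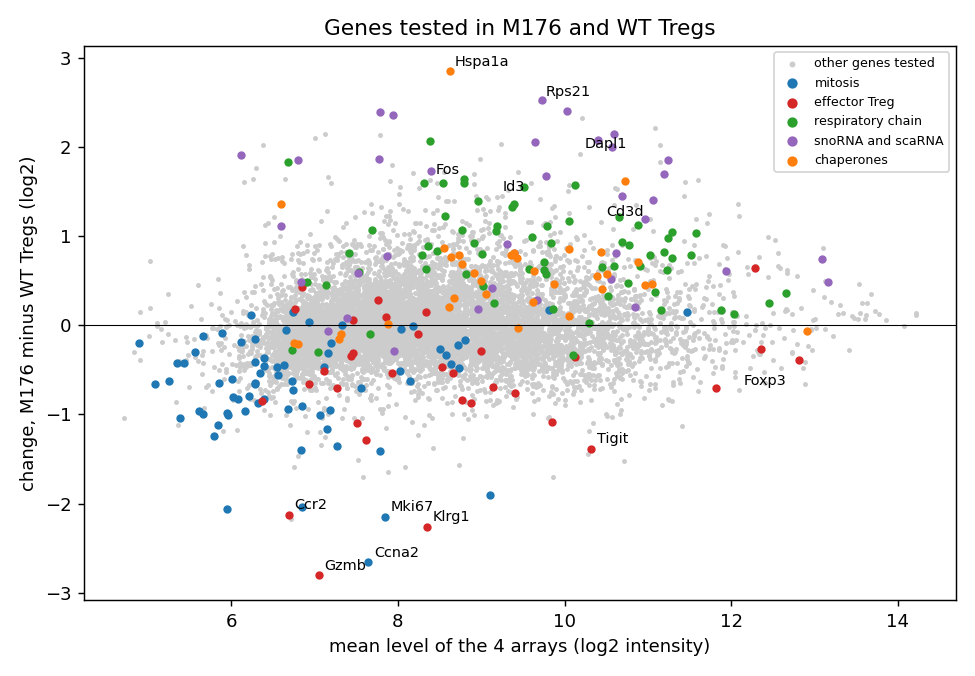
Change in M176 against WT Tregs (log2, vertical) by the mean log2 intensity of the 4 arrays (horizontal) for the 8918 genes tested, with members of 5 gene lists in colour. Mitosis and effector Treg genes lie mostly below 0 and respiratory chain genes, snoRNAs and chaperones mostly above, with Hspa1a at 2.85 and Gzmb at -2.80.

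Foxp3 itself was lower in M176 Tregs. Its intensity was 5913 and 5327 on the WT arrays and 3442 and 3321 on the M176 arrays. The groups did not overlap, which also holds for 6028 of the 8918 genes tested. Foxp3 fell by 0.73 (SE 0.13, limma adjusted p = 0.000554), which is 1.66-fold. In bulk samples fewer cells of a type and less RNA per cell cannot be told apart. Conventional T cells transduced with M176 Foxp3 held 5663 and 5233, against 5945 and 6163 with WT Foxp3, a change of -0.15 that was not called.

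The Treg signature was lower on balance, with 14 of its 36 tested genes falling, 1 rising and a median change of -0.26. Tigit, which encodes an inhibitory receptor, was at 2305 and 1857 with WT and at 756 and 830.3 with M176 (log2 -1.38, SE 0.14, adjusted p = 4.56e-06). Nrn1, which encodes neuritin, fell from 439.6 and 496 to 231 and 201 (log2 -1.12, adjusted p = 4.71e-05). Itgb8, the integrin chain with which Tregs activate latent TGF-beta, fell from 711 and 868 to 405 and 456 (log2 -0.87, adjusted p = 0.000628). For all 3 genes the higher M176 array lay well below the lower WT array, and the arrays did not overlap for 2206 of the 2207 called genes. Chains of the interleukin-2 receptor fell by smaller amounts. Il2ra was at 8497 and 9013 with WT and at 6211 and 6366 with M176 (log2 -0.48, adjusted p = 0.00999), and Il2rb changed by the same amount (log2 -0.48, adjusted p = 0.0102). Il2ra encodes CD25, by which the cells were sorted, so its level is also bounded by the gate. With quantile normalization Il2ra changed by -0.78 and Il2rb by -0.85. The median of the 8 T cell markers moved down with it as well, from -0.18 to -0.50. Both calls were lost without M176 replicate 1 (adjusted p = 0.0846 and 0.0853), that of Il2ra without WT replicate 2 (0.0732) and that of Il2rb without WT replicate 1 (0.0737). The list held 7 called members without WT replicate 1 and 8 without M176 replicate 1.

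Genes that Foxp3 is known to lower went in both directions. Of 17 tested, 5 rose and 2 fell, where 13.4% of all genes tested rose and 11.3% fell. The median of 0.12 turned to -0.09 with quantile normalization. Dapl1, a gene of resting T cells, was at 554 and 639 with WT and at 2259.8 and 2257 with M176 (log2 1.92, SE 0.15, adjusted p = 5.48e-07). Pde3b, a phosphodiesterase gene that is a known target of Foxp3, rose from 60.2 and 56.3 to 141 and 118 (log2 1.15, adjusted p = 1.82e-05). Il2 rose from 53.6 and 50.2 to 102 and 90.4 (log2 0.89, adjusted p = 0.00266), and these levels lie below the median of each array, which was 104 to 113. The interleukin-7 receptor gene Il7r, which is low in Tregs, fell by 0.65 (adjusted p = 0.00187).

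Most effector Treg genes fell. Of 33 tested, 20 fell and 1 rose, and the median was -0.54. Gzmb, which encodes the cytotoxic protease granzyme B, was at 293 and 418 with WT and at 47.6 and 52.8 with M176. Klrg1, a receptor of terminally differentiated effector cells, was at 640.1 and 801 against 172 and 129.6, and Ccr2, a chemokine receptor for inflamed tissue, at 173 and 269.8 against 49.7 and 49.4. The M176 levels of Gzmb and Ccr2 were close to the lower quartile of their arrays, 43.6 and 44.2. The changes were -2.80 for Gzmb (SE 0.21, adjusted p = 3.59e-07), -2.26 for Klrg1 (SE 0.19, adjusted p = 6.58e-07) and -2.13 for Ccr2 (SE 0.20, adjusted p = 2.55e-06).

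The effector list holds 8 tested transcription factors, grouped here after their values were seen, and 5 of them fell. Of all genes tested 11.3% fell and 13.4% rose, which also bears on the helper-lineage counts below. Maf was at 1342 and 1332 with WT and at 645 and 618 with M176 (log2 -1.08, adjusted p = 1.58e-05). The ligand-activated factor Ahr fell by 0.87 (589.8 and 689.5 against 368 and 328), and Nfil3 by 0.51. Rora fell by 0.54, a call lost without WT replicate 2 (adjusted p = 0.147) or M176 replicate 1 (0.166). The AP-1 factor Batf (log2 0.15), Bhlhe40 (log2 0.09) and Epas1 (log2 0.18) were not called. Among other members, the calcium-binding protein gene S100a4 (log2 -1.28), the myosin gene Myo1f (log2 -1.10) and Cd44, the hyaluronan receptor of activated T cells (log2 -0.70), fell as well. The single rise was of Crip1, a small LIM-domain protein gene (log2 0.64), which changed by 0.30 with quantile normalization and was not called there (adjusted p = 0.0822). Irf4, which drives the effector programme, fell by 0.54, a call that was lost without WT replicate 2 (adjusted p = 0.156), M176 replicate 1 (0.0851) or M176 replicate 2 (0.106). Among 29 helper-lineage factors tested 9 fell and 3 rose, with Runx3, a Runt-domain factor, falling by 0.84, and 7 were called without WT replicate 1, 4 without WT replicate 2 and 5 without M176 replicate 1.

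Several chemokine receptors, which guide T cells into tissues, fell. Of 17 chemokine receptors and related genes tested, 8 fell and 2 rose, with a median of -0.29. Ccr6, which binds the epithelial chemokine Ccl20, was at 418 and 526 with WT and at 155 and 157 with M176 (log2 -1.59, SE 0.15, adjusted p = 2.74e-06). Ccr4, a skin-homing receptor, was at 2095 and 2001 against 782 and 722 (log2 -1.45, adjusted p = 1.9e-06), and Ccr8 at 624 and 543 against 316 and 337 (log2 -0.83, adjusted p = 0.000775). Each of these 3 receptors was lower on both M176 arrays than on either WT array, and lack of overlap held for 2206 of the 2207 called genes. Ccr9, a receptor for the small intestine and thymus, moved the other way, from 181 and 212 to 394 and 298 (log2 0.81, adjusted p = 0.000913). The count of called receptors was 6 both without WT replicate 2 and without M176 replicate 1.

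Of 25 cytokine receptors and related genes tested 12 fell and 0 rose, with a median of -0.20. Those that held with any of the 4 arrays left out were Il7r, Il12rb1 (log2 -0.63), Il17rb (-0.66), Csf2rb2 (-0.80) and Csf1 (-1.15), which encodes a ligand rather than a receptor. Without M176 replicate 1, 6 of the list were called. Genes of the TGF-beta axis fell in 6 of 21 cases, with 0 rises. Besides Itgb8, these included the receptor gene Tgfbr1 (log2 -0.54), whose call was lost without WT replicate 2 (adjusted p = 0.116) or M176 replicate 1 (0.081). Between 1 and 3 of that list were called with any of the 4 arrays left out, the fewest without M176 replicate 1. Among 13 integrins 5 fell and 1 rose, with 4 calls without WT replicate 1, 2 without WT replicate 2, 2 without M176 replicate 1 and 3 without M176 replicate 2. Over all genes tested 11.3% fell and 13.4% rose. Itga2, a collagen receptor chain, fell by 1.19 (157 and 209.8 against 77.1 and 81.4, adjusted p = 8.89e-05). Cd80, the costimulatory ligand that T cells can also carry, fell from 316 and 376 to 129.6 and 86.3 (log2 -1.70, adjusted p = 3.76e-06). Ptprj, a receptor phosphatase that tempers antigen-receptor signals, fell from 766 and 702 to 240.4 and 253 (log2 -1.57, adjusted p = 1.9e-06).

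Markers of resting Tregs and early response genes held calls in both directions, as did all genes tested, of which 13.4% rose and 11.3% fell. Of 19 resting genes 5 rose and 5 fell. Id3, an inhibitor of E proteins, was at 412 and 305 with WT and at 1088 and 856 with M176 (log2 1.44, SE 0.16, adjusted p = 1.23e-05). Klf2, which supports recirculation, rose by 0.68 and Bach2, a repressor that keeps Tregs quiescent, fell by 0.68. Klf2 was not called without WT replicate 2 (adjusted p = 0.0778) or M176 replicate 2 (0.0539), and Bach2 not without M176 replicate 1 (0.0993). Among 31 genes of the early response to the T cell receptor 6 rose and 5 fell. Fos, a subunit of AP-1, rose from 196 and 184 to 584 and 593 (log2 1.63, adjusted p = 6.58e-07). Cd69, an early activation marker, rose from 1603 and 1813 to 2801 and 2813 (log2 0.72, adjusted p = 0.00119), and Ier2 rose by 0.78. Nr4a2, a nuclear receptor induced by antigen, fell by 0.49, a call lost with any of the 4 arrays left out (adjusted p = 0.0539 to 0.205). With an array left out, 5 or 6 of the resting genes and 6 to 8 of the early response genes were called.

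In the receptor complex itself Cd3d, a chain of CD3, rose from 1064 and 802 to 2260.5 and 1890.3 (log2 1.16, SE 0.20, adjusted p = 0.000597). Cd3e, another chain of the same complex, fell from 7459 and 7217 to 5267 and 5269 (log2 -0.48, adjusted p = 0.00965), a change of -0.82 with quantile normalization and a call lost without WT replicate 1 (0.0635), M176 replicate 1 (0.0727) or M176 replicate 2 (0.0525). Trat1, an adaptor of the complex, rose by 0.72. Cblb, a ubiquitin ligase that limits receptor signals, fell from 3319 and 3228 to 1803 and 1866 (log2 -0.84, adjusted p = 0.000211), and the adaptor Sla fell by 0.70. Over all genes tested 11.3% fell and 13.4% rose. Of the 30 signalling genes tested 7 fell and 2 rose, with quantile normalization 18 fell, and without M176 replicate 1 there were 4 calls.

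**Figure D2:**
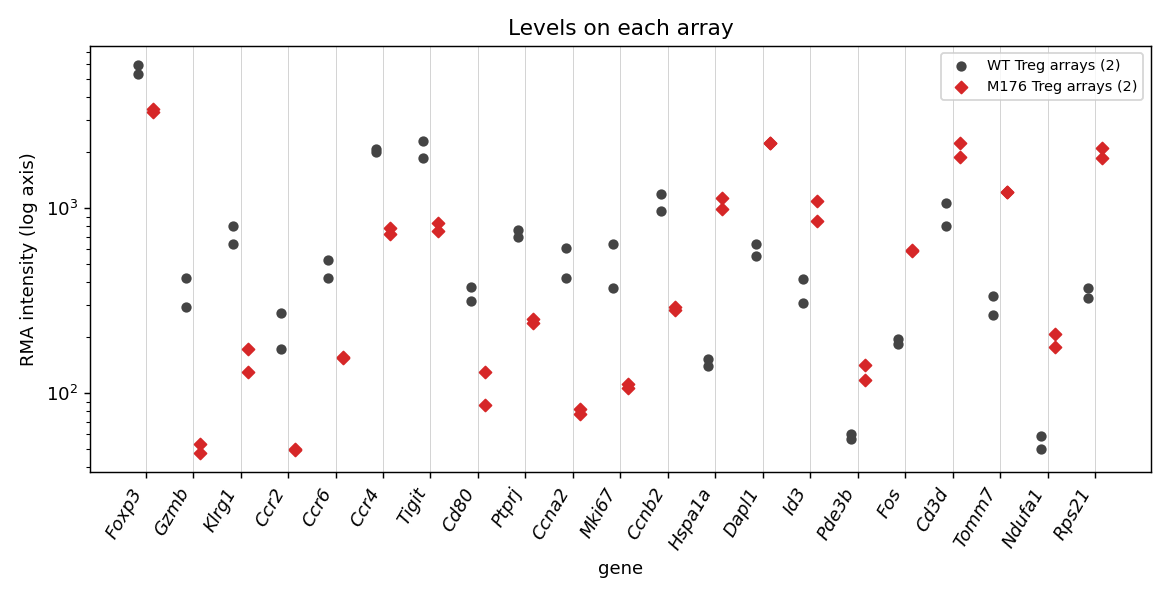
RMA intensity (log axis) of 21 genes on each array, with circles for the 2 WT Treg arrays and diamonds for the 2 M176 Treg arrays. The arrays of the groups do not overlap for the genes shown, which holds for 2206 of the 2207 called genes and 6028 of the 8918 tested, and Gzmb with M176 lies at 47.6 and 52.8.

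Of all lists, that of mitosis held the most falls. Of 70 tested, 43 fell and 0 rose, and the median was -0.61. Ccna2, which encodes cyclin A2, was at 417 and 606 with WT and at 82.6 and 76.9 with M176 (log2 -2.66, SE 0.17, adjusted p = 5.66e-08). Mki67, the gene of the proliferation marker Ki-67, was at 370.4 and 637 against 113 and 107 (log2 -2.15, SE 0.21, adjusted p = 3.7e-06). Ccnb2, which encodes cyclin B2, was at 959 and 1190.4 against 290.4 and 280.0 (log2 -1.91, SE 0.15, adjusted p = 5.48e-07). The WT arrays differed more from each other than the M176 arrays did, and WT replicate 2 was the higher for all 3 genes. Kif11, the motor that separates spindle poles (log2 -2.04), the mitotic kinase gene Plk1 (log2 -1.35) and Ube2c, the conjugating enzyme of the anaphase-promoting complex (log2 -1.41), fell with them. The spindle checkpoint kinase gene Bub1 fell from 81.3 and 195 to 26.5 and 34.4 (log2 -2.06), below the lower quartile of the M176 arrays. Without WT replicate 2, the array with B cell transcripts, 25 of the list were called, all 25 lower, and without M176 replicate 2 there were 28.

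The promoters of these genes share a short sequence. The cell cycle homology region, the letters TTTGAA on either strand, is known from promoters that are active late in the cell cycle and is bound there by the MuvB complex. It was searched in the window from 250 bases before to 50 bases after the start of each gene (RefSeq, build GRCm38.p6). It was found in 41 of the 57 mitosis genes with a promoter in the table, or 71.9%, against 11.8% of all 6954 tested protein-coding genes with one. Mitosis genes that fell held it in 27 of 37 promoters and those not called in 14 of 20. It was in 12% of the promoters of all genes that rose and in 13.3% of those of all genes that fell. The 150 bases before the start are given below, written 5′ to 3′ on the strand of the gene, with the matches in capitals. Shown are the 5 mitosis genes with the widest falls among those that hold the letters there, with a single chromosome left out. They are Mki67 (chr7:135716380-135716529, minus strand), Kif11 (chr19:37376232-37376381, plus strand), Ube2c (chr2:164769779-164769928, plus strand), Ncapg (chr5:45669775-45669924, plus strand) and Ckap2l (chr2:129297213-129297362, minus strand).
Mki67: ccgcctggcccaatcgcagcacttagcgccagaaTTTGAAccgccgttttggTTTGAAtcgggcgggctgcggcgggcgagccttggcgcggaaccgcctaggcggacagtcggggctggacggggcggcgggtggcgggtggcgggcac
Kif11: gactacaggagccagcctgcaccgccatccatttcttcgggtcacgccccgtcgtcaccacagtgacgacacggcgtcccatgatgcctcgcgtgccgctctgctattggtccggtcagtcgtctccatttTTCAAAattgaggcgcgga
Ube2c: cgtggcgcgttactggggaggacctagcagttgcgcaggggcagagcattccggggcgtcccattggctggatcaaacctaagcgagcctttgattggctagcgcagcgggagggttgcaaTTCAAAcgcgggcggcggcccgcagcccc
Ncapg: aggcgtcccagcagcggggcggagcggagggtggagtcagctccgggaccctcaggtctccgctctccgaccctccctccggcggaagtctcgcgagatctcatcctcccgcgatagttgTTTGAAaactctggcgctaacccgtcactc
Ckap2l: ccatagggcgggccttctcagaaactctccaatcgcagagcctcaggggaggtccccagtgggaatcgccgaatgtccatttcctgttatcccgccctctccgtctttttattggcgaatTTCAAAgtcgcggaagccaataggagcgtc
In Ube2c, Ncapg and Ckap2l the match begins 29 or 30 bases before the start and in Kif11 it begins 19 bases before it, while Mki67 holds 2 matches further away, at 116 and 98 bases. Ncapg, a condensin subunit, fell by 1.01 and the spindle protein gene Ckap2l by 0.99. A match describes the letters and not a bound factor.

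Genes of DNA replication followed mitosis only in part, with 13 of 60 falling, 5 rising and a median of -0.17. Of all genes tested 11.3% fell and 13.4% rose. E2f8, a repressor of the E2F family, fell from 188 and 263 to 57.9 and 42.0 (log2 -2.18, adjusted p = 8.14e-07). Rrm2, the regulatory subunit of ribonucleotide reductase, fell from 340.2 and 513 to 150.1 and 119 (log2 -1.65, adjusted p = 4.49e-05), and thymidine kinase Tk1 by 0.70. The sliding clamp gene Pcna was at 2759.8 and 2866 with WT and at 3305 and 3101 with M176 (log2 0.19, adjusted p = 0.328; -0.14 with quantile normalization). The helicase subunit gene Mcm2 was at 468 and 445 against 475 and 438, with a limma adjusted p of 0.999. Rpa3, the small subunit of the single-strand binding complex, rose from 151 and 157 to 392 and 358 (log2 1.29, adjusted p = 7.45e-05), and the fork protein gene Tipin rose by 1.17. Without M176 replicate 1, 8 of the 18 calls of this list were left. Of 15 cell cycle inhibitor genes tested 3 rose and 1 fell, and the median was -0.16. Cdkn2d, an inhibitor of the G1 cyclin-dependent kinases, rose from 157 and 150.3 to 303 and 326 (log2 1.03, adjusted p = 8.2e-05), and the growth arrest gene Gadd45g rose by 0.93. The fall was that of Cdkn2c, from 180 and 221 with WT to 137 and 135 with M176.

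Histone genes did not follow the falls of the cell cycle genes, since 7 of 22 rose and 1 fell, with a median of 0.29. H2bc4 was at 298 and 237 with WT and at 957 and 982 with M176 (log2 1.87, adjusted p = 1.99e-05), H2bc8 rose by 1.55 and H4c3 by 1.43. Clustered histone genes are near-identical copies, so a probe set may read several of them.

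The rises were led by genes of ribosomes and mitochondria. Of 56 cytosolic ribosomal protein genes 38 rose and 1 fell, with a median of 0.68. Rps21 was at 371 and 328 with WT and at 1867 and 2123 with M176 (log2 2.51, SE 0.21, adjusted p = 8.14e-07). Rpl24 was at 551 and 507 against 2615 and 2692 (log2 2.33, SE 0.15, adjusted p = 5.66e-08), and Rps29 at 1046 and 976 against 4617 and 4731 (log2 2.21, adjusted p = 4.36e-06). These 3 genes come from a ranking of called genes whose arrays did not overlap, so the gap between their groups follows from that choice. Lack of overlap held for 2206 of the 2207 called genes. Rpl8 rose by 1.63, Rps19 by 1.19 and Rps28 by 2.02. The name pattern of the list also takes Rps27l, Rps19bp1 and Rps23rg1, which are no standard subunits, and the fall was that of Rps23rg1 (log2 -0.39), a call lost without any 1 of the 4 arrays. Many of these genes have near-identical processed copies, so their values may mix several loci.

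Small nucleolar and Cajal body RNAs, which guide the modification of ribosomal and spliceosomal RNA, had the highest median of all lists named here, 1.15, with 21 of 36 rising and 0 falling. Snord15a was at 94.5 and 97.6 with WT and at 493 and 516 with M176 (log2 2.39, adjusted p = 5.96e-06), and Snord22 at 99.6 and 117 against 519 and 595 (log2 2.36, adjusted p = 5.48e-07). Snora69 rose by 2.52, with a wider SE of 0.49. Genes of ribosome biogenesis rose in 12 of 33 cases and fell in 0, with a median of 0.27. Among these Nop10, a protein of the box H/ACA particles, rose by 1.13 (578 and 611 against 1422 and 1194). Of the 12 calls 6 were left without WT replicate 2 and 4 without M176 replicate 1.

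Subunits of the respiratory chain and ATP synthase rose in 51 of 66 cases and fell in 0, with a median of 0.80. Ndufa1, an accessory subunit of complex I, was at 59.0 and 49.9 with WT and at 178 and 208 with M176 (log2 1.83, SE 0.19, adjusted p = 5.39e-06). Cox4i1, a subunit of cytochrome c oxidase, was at 249 and 259.7 against 744 and 796 (log2 1.60, adjusted p = 8.18e-06). Atp5mpl, a small subunit of ATP synthase, rose by 2.07, the complex III subunit gene Uqcrb by 1.22 and the complex II subunit gene Sdhb by 0.80. The nuclear genes of all 5 complexes thus included called members, each of them higher. Quantile normalization kept 47 rises and added 1 fall. With any of the 4 arrays left out, between 39 and 47 were called.

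Mitochondrial ribosomal proteins rose in 45 of 61 cases and fell in 0 (median 0.61). Mrps36, counted here by its symbol, was at 42.0 and 42.8 with WT, below the lower quartile of those arrays. With M176 it was at 166 and 126 (log2 1.77, adjusted p = 1.09e-06), and Mrpl23 rose by 1.51. Factors for protein import and complex assembly rose in 23 of 35 cases and fell in 0 (median 0.52). Tomm7, of the translocase of the outer membrane, was at 336 and 264 against 1227 and 1215 (log2 2.03, adjusted p = 2.74e-06), and Tomm20, the import receptor, at 665 and 569 against 2184 and 1537 (log2 1.57, adjusted p = 0.000238). Without M176 replicate 1, 29 of the mitochondrial ribosomal genes and 13 of the import and assembly genes were called.

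Proteasome subunits rose in 19 of 31 cases and fell in 0 (median 0.53). The immunoproteasome subunit gene Psmb10 was at 1298 and 1046 with WT and at 2982 and 2948 with M176 (log2 1.35, SE 0.15, adjusted p = 1.29e-05), Psmb8 rose by 1.03 and Psmb9 by 0.87. The core subunit gene Psma7 rose from 205 and 204 to 539 and 468 (log2 1.29, adjusted p = 3.94e-05). The list held 10 calls without WT replicate 1, 9 without M176 replicate 1 and 12 without M176 replicate 2. Among translation factors the rises were fewer, with 16 of 53 rising, 3 falling and a median of 0.18. Eif3e rose by 1.08 and Eif1ax by 1.13. Of these 19 calls 11 were left without M176 replicate 1 and 12 without M176 replicate 2. Gpx1, which encodes a glutathione peroxidase, rose from 1078 and 1007 to 2479 and 2432 (log2 1.24, adjusted p = 6.08e-06).

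The chaperones include the gene with the largest rise of all 8918 tested. Hspa1a, the inducible Hsp70, was at 152 and 141 with WT and at 984 and 1135 with M176 (log2 2.85, SE 0.13, adjusted p = 5.38e-10), which is 7.21-fold. Its near-identical neighbour Hspa1b shares a probe set with it that was left out as naming several genes, and the one used may also read both. Of 34 chaperone genes 21 rose and 0 fell, with a median of 0.53. Hspe1, the mitochondrial co-chaperonin, was at 981 and 952 against 2923 and 3006 (log2 1.62, adjusted p = 8.18e-06). Dnajb1, the Hsp40 partner of Hsp70, rose by 0.78, Hsph1 by 0.76 and Tcp1, of the cytosolic chaperonin, by 0.85. The constitutive family member Hspa8 was at 7714 and 7939 with WT and at 7563 and 7450.3 with M176 (log2 -0.06, adjusted p = 0.759), and the inducible co-chaperone gene Bag3 was at 175 and 156 against 175 and 127 (log2 -0.15, adjusted p = 0.485). Without M176 replicate 1 the count of rises was 11 and without WT replicate 1 it was 13.

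The heat shock element GAANNTTC, the pair of inverted repeats that heat shock factors read, was found on either strand in 9 of the 30 chaperone promoters, or 30%, against 5.71% of all 6954. It was in 4 of the 18 promoters of chaperone genes that rose and in 5 of the 12 of those not called. The 150 bases before the start hold it in both chaperone genes with the widest rises, Hspa1a (chr17:34972157-34972306, minus strand) and Hspe1 (chr1:55087998-55088147, plus strand). They are shown 5′ to 3′ from RefSeq, GRCm38.p6, with the match in capitals.
Hspa1a: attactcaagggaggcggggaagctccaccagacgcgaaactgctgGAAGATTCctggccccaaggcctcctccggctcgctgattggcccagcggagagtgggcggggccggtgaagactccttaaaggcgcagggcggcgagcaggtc
Hspe1: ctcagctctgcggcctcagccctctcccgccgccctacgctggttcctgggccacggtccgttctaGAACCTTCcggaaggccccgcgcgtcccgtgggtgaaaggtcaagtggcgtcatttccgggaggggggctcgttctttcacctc
The match begins 104 bases before the start of Hspa1a and 84 bases before that of Hspe1. Matches to different motifs were counted separately and may share bases.

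Interferon response genes held calls in both directions, with 13 of 43 rising, 4 falling and a median of 0.18. Of all genes tested 13.4% rose and 11.3% fell. Ifi27l2a was at 969 and 959 with WT and at 2536 and 2391 with M176 (log2 1.35, SE 0.19, adjusted p = 0.000103). The receptor transporter gene Rtp4 rose from 427 and 421 to 869 and 744 (log2 0.92, adjusted p = 0.000946), and Ifit3, a partner of the RNA-binding Ifit1, from 409 and 463 to 795 and 683 (log2 0.76, adjusted p = 0.00106). The 4 falls included 3 guanylate-binding protein genes. Gbp7 was at 1589 and 2046 against 1269.7 and 1109 (log2 -0.60), and its call was lost without WT replicate 2 (adjusted p = 0.0797) or M176 replicate 2 (0.0556). Ifit1 rose by 0.82, a call lost without WT replicate 1 (0.133) or M176 replicate 1 (0.144). The list kept 4 calls without M176 replicate 1, 9 without WT replicate 1, 11 without WT replicate 2 and 10 without M176 replicate 2.

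Members that rose and a member that fell share the interferon-stimulated response element, searched as a pair of GAAA repeats with 2 bases between them on either strand, present in 15 of 30 promoters of the list (50%) and in 2.96% of all 6954. It was in 7 of the 11 promoters of called members and in 8 of the 19 of those not called. Shown are the 150 bases before the start of Ifit1 (chr19:34640739-34640888, plus strand), Ifit3 (chr19:34583379-34583528, plus strand) and Gbp7 (chr3:142530186-142530335, plus strand), from the same source, with matches in capitals.
Ifit1: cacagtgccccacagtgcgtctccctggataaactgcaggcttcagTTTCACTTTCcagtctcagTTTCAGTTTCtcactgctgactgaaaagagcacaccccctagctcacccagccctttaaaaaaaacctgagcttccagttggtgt
Ifit3: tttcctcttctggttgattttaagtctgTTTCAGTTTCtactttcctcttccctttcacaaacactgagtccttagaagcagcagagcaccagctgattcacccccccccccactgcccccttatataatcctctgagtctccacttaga
Gbp7: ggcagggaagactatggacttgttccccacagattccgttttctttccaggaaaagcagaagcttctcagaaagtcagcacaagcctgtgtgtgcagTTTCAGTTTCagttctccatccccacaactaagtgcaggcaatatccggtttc
Ifit1 holds 2 matches, which begin 104 and 85 bases before the start, and the match of Gbp7 begins 53 bases before it.

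Genes of MHC class II are given beside the B cell transcripts of WT replicate 2, whose part in them was not tested. The invariant chain Cd74 was at 536 and 1067 with WT and at 386 and 362 with M176 (log2 -1.02, adjusted p = 0.00216). Without WT replicate 2 its change was -0.52 (adjusted p = 0.0333). H2-DMa, which loads peptides onto class II, moved the other way, from 548 and 399 to 1029 and 665 (log2 0.82, adjusted p = 0.00655), and it was not called without WT replicate 2 (0.081) or M176 replicate 1 (log2 0.51, adjusted p = 0.151). The median of the 7 class II genes tested was -0.39, and 0.06 without WT replicate 2.

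**Figure D3:**
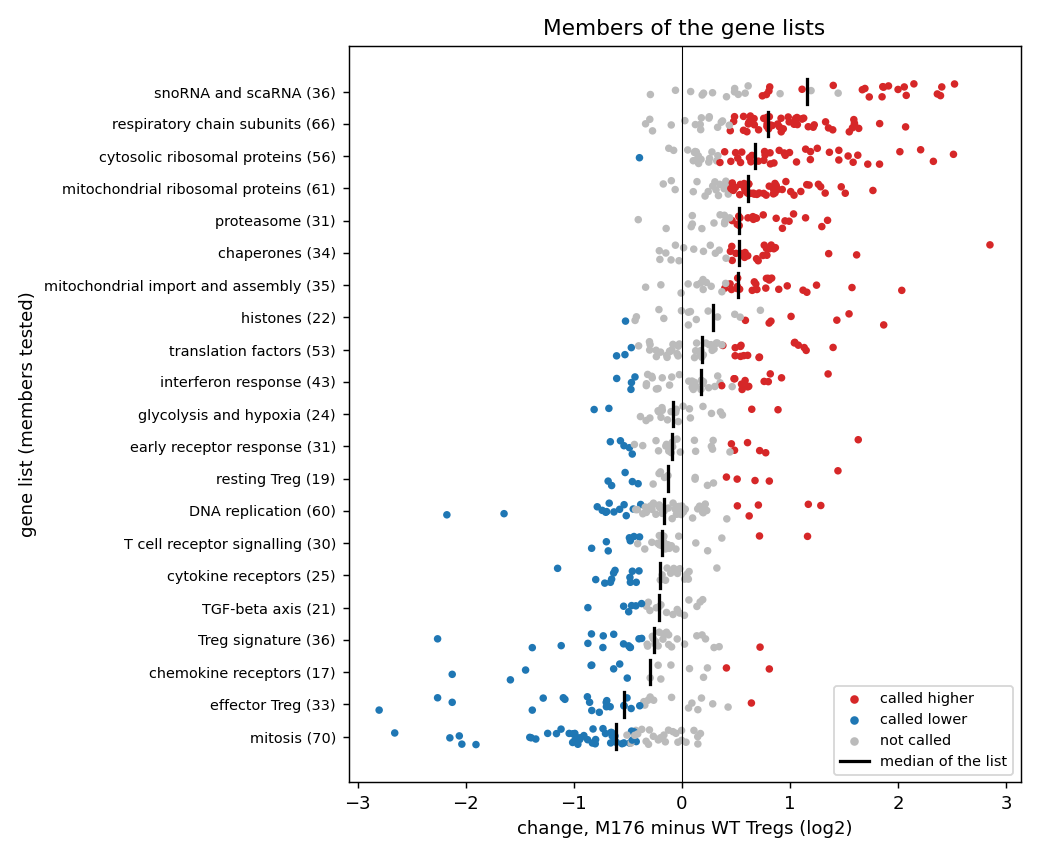
Change in M176 against WT Tregs (log2, horizontal) of each tested member of 21 gene lists (rows, with the number tested), red for called higher, blue for called lower and grey for not called, with a black bar at the median. The snoRNA list has its median at 1.15 and the mitosis list at -0.61.

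MicroRNA genes differed from the other small RNAs. Of 70 tested, 20 fell and 2 rose, with a median of -0.30, and 59 lay below 0. The probe sets are named for the gene and do not show whether either mature strand is present. The genes named here were picked after their values were seen. Mir15b was at 54.9 and 69.5 with WT and at 235 and 299 with M176 (log2 2.10, SE 0.24, adjusted p = 1.54e-05). It lies inside Smc4, a condensin gene, which was at 2449.6 and 2985 against 3105 and 2885 (log2 0.15, adjusted p = 0.474). Mir505 fell from 1523 and 1866 to 420.0 and 637 (log2 -1.70, adjusted p = 0.00023), and Mir342, which lies inside Evl (log2 -0.27, adjusted p = 0.179), from 414 and 515 to 169 and 229 (log2 -1.23, adjusted p = 0.000242). Mir155, a microRNA of activated lymphocytes that Foxp3 is known to induce, was at 115 and 117 against 51.0 and 71.3 (log2 -0.95, adjusted p = 0.00217), a call lost without M176 replicate 1 (0.0584). The levels of Mir15b with WT and of Mir155 with M176 lay below the median of each array, which was 104 to 113. Of the 22 called microRNA genes 10 lie inside the span of a tested gene, with strand not compared, and Mcm7 holds both Mir106b and Mir25. Only 1 of the genes that hold them was called, Fgf13, which rose by 0.42 while Mir504 inside it fell by 0.62.

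Mature sequences from RefSeq were taken for 62 of the 70 genes, with a single chromosome left out of the search. Both mature strands of the 4 genes named above are given 5′ to 3′, though the probe sets do not show whether either was present. The seed, bases 2 to 8, is in capitals because it sets which targets a microRNA can pair with. The last line gives miR-15a-5p, which shares the seed AGCAGCA of miR-15b-5p and whose gene Mir15a was tested and not called.
miR-15b-5p: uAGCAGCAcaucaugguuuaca
miR-15b-3p: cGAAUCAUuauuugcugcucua
miR-505-5p: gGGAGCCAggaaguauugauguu
miR-505-3p: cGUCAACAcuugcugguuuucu
miR-342-5p: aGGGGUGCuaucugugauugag
miR-342-3p: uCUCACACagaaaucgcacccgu
miR-155-5p: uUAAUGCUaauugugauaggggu
miR-155-3p: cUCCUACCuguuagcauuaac
miR-15a-5p: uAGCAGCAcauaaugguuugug
On build GRCm38.p6 the strands of Mir15b lie at chr3:69009775-69009796 and chr3:69009813-69009834 and those of Mir342 at chr12:108658638-108658659 and chr12:108658680-108658702, all on the plus strand. Those of Mir155 lie at chr16:84714143-84714165 and chr16:84714182-84714202 on the plus strand, and those of Mir505 at chrX:60394451-60394473 and chrX:60394416-60394437 on the minus strand, with the 5p strand first for each gene.

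The length of a gene on the genome went along with the direction of change. The median span from start to end was 9327.5 bases for the genes that rose, 35212 bases for those that fell and 22913 bases for those not called. The genes were put into 5 bins of equal size by span. In the bin with the shortest spans (median 3481 bases) 25.9% rose and 8.13% fell, and in the bin with the longest (median 101801 bases) 3.08% rose and 20.2% fell. Spearman's rho between change and span over 8914 genes was -0.29 in Tregs with M176, -0.28 in transduced cells with M176 and -0.16 in Tregs with M354, where genes are not independent and the Treg comparisons share the WT arrays. The respiratory chain list had a median span of 7128 bases and the cytosolic ribosomal list of 3620 bases. The chaperone list, with 21 rises, had a median span of 16955.5 bases and the effector Treg list, with 20 falls, of 10267 bases, so lists that rose were not always the shorter. With the smooth trend on span removed, an alternative added after the values were seen, 2408 genes were called, 48 respiratory chain genes and 33 cytosolic ribosomal genes rose, and 45 mitosis genes fell.

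**Figure D4:**
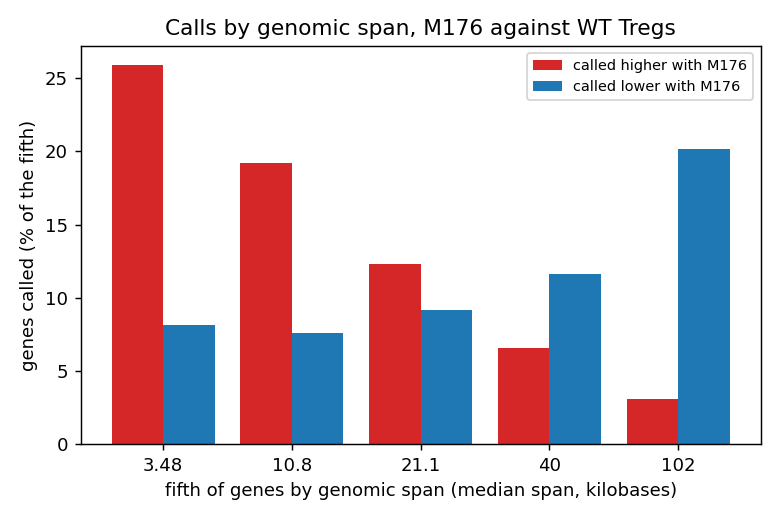
Share of genes called higher (red) and lower (blue) in M176 against WT Tregs (vertical, % of the bin) in each of 5 equal bins of genes by genomic span (horizontal, median span in kilobases). The share that rose goes from 25.9% in the shortest bin to 3.08% in the longest and the share that fell from 8.13% to 20.2%.

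Other promoter letters were counted in the same windows. The ETS site CCGGAA, on either strand, was in 39.4% of the promoters of genes that rose, 22.5% of those of genes that fell and 30.3% of all. It was in 57.4% of the mitochondrial ribosomal and in 42.6% of the respiratory chain promoters. Lists with more falls than rises differed, with 40.4% of the mitosis, 39.2% of the DNA replication, 15.4% of the effector Treg and 8.70% of the Treg signature promoters. The forkhead site TGTTTA, the kind of letters that the DNA-binding domain of Foxp3 reads, was in 8.90% of the promoters of genes that rose, 7.75% of those that fell and 8.07% of all. Among the lists searched it ran from 0 of 30 chaperone promoters to 8 of 30 interferon response promoters (26.7%). It was in 5 of 23 Treg signature promoters (21.7%) and in 4 of 26 effector Treg promoters (15.4%). These shares describe 300 bases at each start and say nothing of binding elsewhere.

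The same allele in transduced conventional T cells gave fewer calls. Limma called 46 genes there (0.516% of those tested), 1 higher (0.0112%) and 45 lower (0.505%), and 27 without WT replicate 1, 26 without M176 replicate 1 and 23 without M176 replicate 2 of those cells. Of them 11 were also called in M176 Tregs, which is 23.9% of the transduced calls, near the 24.7% of all tested genes called in M176 Tregs, and 0.498% of the Treg calls. Of the 11, 7 went the same way. No array is shared between these comparisons. The effect of M176 in Tregs minus its effect in transduced cells was itself called for 488 genes (5.47%), above 0 for 358 (4.01%) and below 0 for 130 (1.46%), among them 325 of the genes that rose in Tregs and 130 of those that fell. With 1 of the arrays left out that count was 148 without M176 Treg replicate 1, 303 without WT Treg replicate 1 and 183 without M176 transduced replicate 1. The Treg effect is a part of this difference, so genes picked for a large change in Tregs lean to a difference of the same sign. Hspa1a changed by 0.15 in transduced cells (difference of effects 2.70, SE 0.18, adjusted p = 3.39e-07), Gzmb by -0.29 (difference -2.52, adjusted p = 0.000122) and Ccna2 by -0.22 (difference -2.44, adjusted p = 2.55e-05). Fos changed by -0.34 there (difference 1.97, adjusted p = 2.42e-05). For Tigit the difference of effects was -0.95 (adjusted p = 0.00861), while for Foxp3 itself it was -0.58 and was not called (adjusted p = 0.0664).

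Glycolysis and hypoxia genes were the list with the most calls in transduced cells, where 14 of 24 were called and the median was -0.82, against 2 rises, 2 falls and a median of -0.08 in Tregs. Pgk1, a glycolytic kinase, was at 596 and 609 with WT and at 1258 and 991 with M176 in Tregs (log2 0.89, adjusted p = 0.00135) and changed by -0.88 in transduced cells (difference 1.77, adjusted p = 0.000519). Slc2a3, a glucose transporter gene, fell in both, by 0.68 in Tregs and by 1.02 in transduced cells (difference 0.35, SE 0.18, adjusted p = 0.274). Tnfrsf8, which encodes CD30, likewise fell by 0.70 and by 0.75.

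Tregs with the other mutant, M354, share the WT arrays with this comparison, so their values stand only side by side. Against WT, 161 genes were called with M354 (1.81%), 79 higher (0.886%) and 82 lower (0.919%). The mitosis list had a median of 0.39 with 5 rises and 0 falls, the effector list 0.28 with 7 rises and 0 falls, the respiratory chain list 0.04 with 0 calls and the chaperone list -0.10 with 0 calls. The change of Hspa1a was -0.13 with M354 and 2.85 with M176, that of Ahr was 1.46 and -0.87, and that of Ptprj was -0.60 and -1.57.

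**Figure D5:**
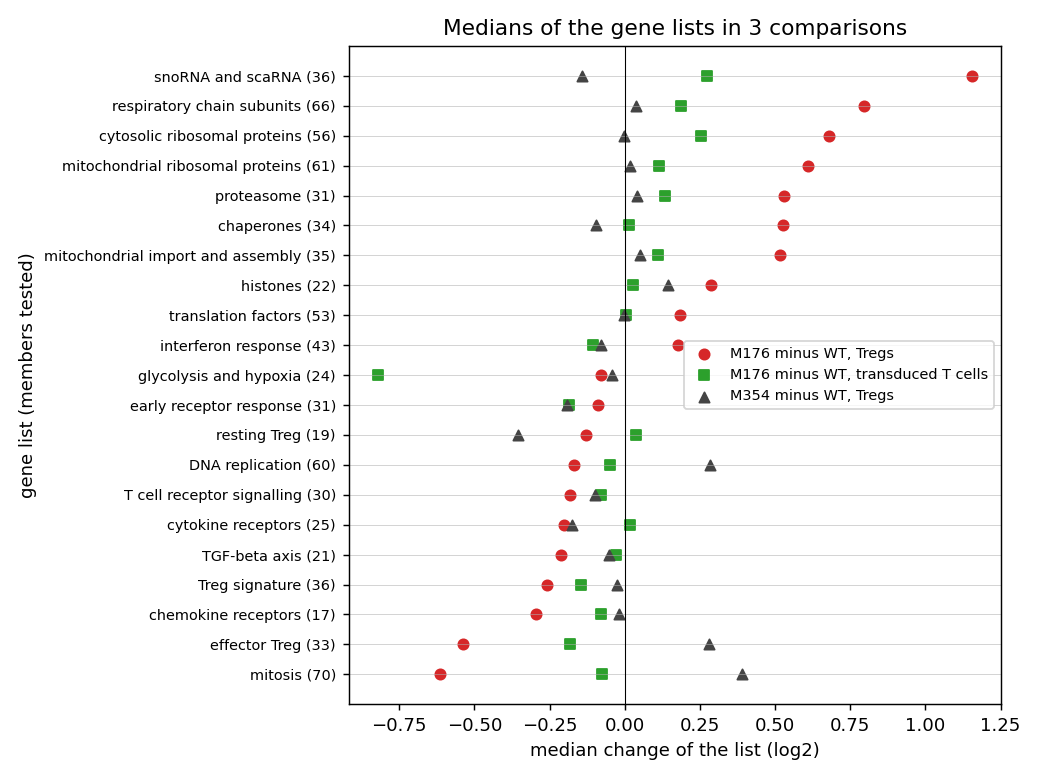
Median change (log2, horizontal) of 21 gene lists (rows, with the number tested) for M176 against WT in Tregs (circles), M176 against WT in transduced T cells (squares) and M354 against WT in Tregs (triangles), where both Treg comparisons share the WT arrays. The snoRNA list stands at 1.15 in M176 Tregs and the mitosis list at -0.61, and glycolysis and hypoxia stand at -0.82 in transduced cells.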

How the data were processed

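Gene expression was measured on Affymetrix ST1.0 arrays. Per the submitters' processing notes, the authors used Affymetrix Power Tools and RMA, and the deposited values are intensities on a linear scale. They were used as log2 without further normalization. Of the probe sets, 17703 name 1 gene, 1246 several and 1767 none. The brightest probe set naming 1 gene stood for it, and few genes of chromosomes 1, 10 and 11 are in the table (26, 15 and 166 tested).

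A single mean per group was fitted over all 12 arrays with limma 3.58.1 (R 4.3.3), with empirical Bayes variances and Benjamini-Hochberg adjustment over 8918 genes. The script was tested on simulated data. The number of arrays limits the precision. Genes named are mainly Foxp3, the 15 largest changes each way that passed and did not overlap, up to 12 called members of each list in each direction, and defining members. Some were named outside this rule, among them Rps19, Uqcrb, Sdhb, Bag3, Nfil3, Batf, Bhlhe40 and Epas1. Ncapg and Ckap2l were named for their promoters. The comparison, the lists and the tests were chosen with earlier results of these data known. Promoter and microRNA sequences are from RefSeq (GRCm38.p6).

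Replicate numbers of the groups did not pair: the correlation over genes of replicate differences between groups was 0.0133. The fit was repeated with the replicate block, other normalizations (quantile, cyclic loess) and filters, fewer arrays, averaged probe sets, other variance priors, each array left out, and a trend on gene span removed.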

Additional observations from a re-analysis of the deposited data

Results flagged for a closer look

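The effect of M176 was compared between Tregs and transduced conventional T cells, as the log2 effect in Tregs minus that in transduced cells, and limma called this difference at an adjusted p under 0.05 for 488 genes. The genes below were ranked by their change in Tregs, which is itself a part of the difference. Its sign was therefore largely set by the ranking, and the values describe these genes only. Among them the difference was above 0 for Hspa1a (2.70), the repeat-family gene Srsy (2.05), the histone gene H2bc4 (1.82) and Dapl1 (1.60). It was 1.35 for Sptssa, a subunit of the enzyme that starts sphingolipid synthesis. It was also above 0 for members of the cytosolic ribosomal list, Rps21 (1.99), Rpl24 (1.98), Rps29 (1.51), Rps28 (1.43), Rps27l (1.39) and Rps12 (1.35). The same held for the mitochondrial genes Atp5mpl (1.69), Tomm7 (1.66), Mrps36 (1.55) and Ndufa1 (1.44).

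The difference was below 0 for the effector list genes Gzmb (-2.52), Klrg1 (-2.36) and Ccr2 (-1.90), and for Ccr6 (-1.77), Cd80 (-1.28) and Ptprj (-1.20). It was below 0 for the cell cycle genes Ccna2 (-2.44), Mki67 (-1.89), E2f8 (-1.84), Ccnb2 (-1.78), Kif11 (-1.72), Bub1 (-1.68) and Rrm2 (-1.57), and for Myadm (-1.15) and Lclat1 (-1.09). Tregs were taken from the spleen and transduced cells carried retroviral Foxp3, so cell type, culture and Foxp3 source cannot be told apart in this difference.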

How the results depend on the processing

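The count of 2207 genes called in M176 against WT Tregs was 916 to 1522 with an array left out and 1190 at an adjusted p under 0.01. Under the other settings it ran from 1480 (a filter at the 75th percentile) to 2643 (the 4 arrays alone). With the replicate block 2012 genes were called, 2002 of them shared with the fit without it, but the replicate numbers did not pair the samples. Without M176 replicate 1, 40.8% of the calls remained, against 59.9% to 66.2% without each other array. The 46 calls in transduced cells became 23 to 53 with an array left out, and the 488 differences between cell types became 148 to 540 (371 with the block). The 495 calls among list members became 291 to 378. Foxp3 was called under every setting run, with log2 changes from -0.66 to -1.07. Of 377 named genes, 131 lost the call without M176 replicate 1, 34 with the span trend removed and 26 with quantile normalization. Genes whose change turned sign were not called. With an array left out, the change of Cd79a ran from -1.999 to 0.088 and that of H2-Aa from -2.55 to 0.48, and Ms4a1 ran from -2.43 to 0.058, all 3 highest without WT replicate 2. Jchain ran from -0.52 to 0.19, Mcm2 from -0.059 to 0.058, Slc4a1 from -0.16 to 0.12 and Zbtb46 from -0.31 to 0.060. Quantile normalization gave Pcna -0.14, Slc4a1 0.065 and Smc4 -0.15, cyclic loess gave Slc4a1 0.070, and Zbtb46 was at 0.053 with the span trend removed. The cause of these moves was not tested.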

Other observations

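Other classes of RNA gene were counted as well. The RNA components of RNase P rose in 2 of 2 cases, and V segments of antigen receptors rose in 4 of 13 and fell in 0. Over all genes tested 13.4% rose and 11.3% fell.

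Where a called gene had further probe sets, they mostly pointed the same way. Of 362 further probe sets of 203 genes, 334 had the sign of the brightest.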
